A study of Mus musculus with 4 samples.

Results

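Immediate early response genes are the first genes a cell transcribes after a stimulus, and they need no new protein synthesis to be switched on. Members of the Fos and Jun families are basic leucine zipper proteins that pair with each other as AP-1 and bind DNA, while other early response genes encode brakes on the same response. In airspace macrophages such genes are known to respond to inhaled particles, microbial products and mechanical or thermal stress, including the stress of tissue handling.

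The set described here holds 10 such genes out of the 13838 genes of the deposited matrix. These were chosen by name, with earlier results of these data known. They are Fos and Fosb of the Fos family, Jun, Junb and Jund of the Jun family, the zinc finger factor Egr1, the leucine zipper factor Atf3, and Ier2, Ier3 and Zfp36. Ier3 (a regulator of cell survival) and Zfp36 (tristetraprolin, which binds AU-rich RNA and speeds its decay) are not transcription factors, so the set is broader than a list of transcription factors. All 10 were found in the matrix, with 73 unique molecular identifiers (UMIs) for Fosb, the fewest, and 8519 for Jund, the most.

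The cells came from bronchoalveolar lavage of C57BL/6 mice in 4 groups, each a single library pooled from 7 mice. The control group breathed filtered air and received saline through the nose, and the HDM group breathed filtered air and received 10 µg of house dust mite, an allergen. The APM group breathed Afghanistan particulate matter, a mineral dust, at 5 mg/m3, 12 days running and 6 hours each day, and then received saline, and the HDM+APM group received both dust and allergen. Allergen or saline was given on days 22 and 29 and again on days 36, 37 and 38, and lavage followed on day 39, so the dust exposure lay well before harvest. Because each group is 1 library of pooled mice, no difference has a replicate check, no test between groups was possible and no p-value is given. Intervals are 95% intervals and cover counting error only.

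The 4 libraries held 994 to 3918 cells, 9925 in all, in 17 clusters that the authors named. Median depth ran from 1380 UMIs per cell in HDM to 4780 in HDM+APM, and 29.4% of HDM cells lay under 1000 UMIs against 1.25% in control. T cells, B cells, dendritic and granulocyte-like cells had the highest summed level of their own markers, with all 10 granulocyte markers highest in the granulocyte-like cells. Macrophage 8, placed by the authors among alveolar macrophages, was second for monocyte-derived macrophage markers over all libraries and is kept apart from Macrophages 1 to 7, 9 and 10. Its alveolar macrophage markers, highest over all libraries together, summed within libraries to 8664 CPM in control, 7872 in APM, 39140 in HDM and 36060 in HDM+APM. In Macrophages 1 to 7, 9 and 10 they summed to 12730, 13130, 38650 and 36890 in the same order, so only in HDM was Macrophage 8 the higher. The cells named classical monocyte, all from HDM+APM, were highest for monocyte markers (7074 CPM) and for monocyte-derived macrophage markers (7414 CPM) alike. The cells named epithelial were highest for epithelial markers and also for all 7 red blood cell markers, so both names are used only as labels. Levels are given as CPM, the UMIs of a gene scaled to a total that is the same for every cluster and library, and 26 cluster and library pairs held at least 50 cells. The clusters were formed on the genes of these same cells, so levels between clusters are a description.

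The members lie on several chromosomes, by the GENCODE vM21 annotation of build mm10. Fos is at chr12:85473890-85477273 (plus strand, 4 exons) and Jun at chr4:95049034-95052222 (minus strand, 1 exon). Junb is at chr8:84974484-84978718 (minus strand, 1 exon) and Jund at chr8:70698949-70700616 (plus strand, 1 exon). Ier3 is at chr17:35821684-35822923 (plus strand, 2 exons) and Zfp36 at chr7:28376784-28380253 (minus strand, 2 exons). Sequence before the start site is shown for Fos, Jun and Junb, members of AP-1 whose levels over the clusters differed. It is from RefSeq on build GRCm38.p6, where 8 of the 10 members had an entry, as the 120 bases ending just before the start, 5′ to 3′ on the gene's strand, with motif matches in capitals.
Fos: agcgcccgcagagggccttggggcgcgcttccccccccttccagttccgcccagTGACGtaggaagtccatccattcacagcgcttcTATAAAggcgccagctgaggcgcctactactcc
Jun: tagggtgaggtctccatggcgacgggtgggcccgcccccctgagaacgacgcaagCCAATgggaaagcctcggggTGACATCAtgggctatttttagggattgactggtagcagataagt
Junb: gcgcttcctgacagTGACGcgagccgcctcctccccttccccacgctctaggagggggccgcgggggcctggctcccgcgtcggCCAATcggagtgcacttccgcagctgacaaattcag
The windows are chr12:85473770-85473889 (plus strand) for Fos, chr4:95052223-95052342 (minus strand) for Jun and chr8:84978749-84978868 (minus strand) for Junb. Both strands were searched. The motifs were the TATA box TATAAA, the cyclic AMP response element TGACGTCA with its core TGACG contained in it, the related site TGACATCA known from Jun, the AP-1 site written as TGANTCA, the CCAAT box and, by name, the CArG box of serum response factor. Fos held TATAAA at -33 to -28 from the start and TGACG at -66 to -62, with another TGACG at -129 to -125, outside the bases shown. Jun held TGACATCA at -45 to -38 and CCAAT at -65 to -61, and Junb held TGACG at -106 to -102 and CCAAT at -36 to -32. Over the 250 bases before the start of 32851 RefSeq promoters, TATAAA was present in 12.4%, TGACG in 17.8%, TGACGTCA in 1.55%, TGACATCA in 2.93%, TGANTCA in 6.75%, CCAAT in 33.8% and the CArG box in 1.47%. A match describes letters in a window and shows no binding.

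The 3′ untranslated regions were searched for TATTTAT on the sense strand, the AU-rich heptamer that Zfp36 is known to bind, because Zfp36 itself is a member. In the GENCODE vM21 annotation 7 of 10 members held at least 1 copy in their longest 3′ untranslated region, against 5798 of 21020 genes (27.6%). Ier3 had 4 copies, Zfp36 had 3, Fos had 2, and Fosb, Jun, Jund and Atf3 had 1 each, while Junb, Egr1 and Ier2 had none. The first site in the 3 members with several copies is shown in 29 bases, copies in capitals (cut at the end of the window).
Fos: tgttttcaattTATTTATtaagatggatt
Ier3: tgtctaattaaTATTTATgTATTTATgta
Zfp36: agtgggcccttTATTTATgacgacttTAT
Among genes with a 3′ untranslated region of like length to that of Ier3, 16.3% held the heptamer, and the shares for Zfp36 and Fos were 19.7% and 20.4%.

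The members did not share a single pattern over the clusters. Over the 26 pairs of cluster and library, the granulocyte-like cells of HDM were highest for Fos, Junb, Egr1, Atf3, Ier3 and Zfp36. Macrophage 9 was highest for Jun, B cells 2 for Jund, T cells of APM for Ier2 and Macrophage 8 of control for Fosb. For each gene, 23 or more of the 25 neighbouring pairs in the order of levels had overlapping intervals. The order of neighbours is therefore firm only at the few gaps, while units further apart in the order can still have separate intervals. In bulk sums of this kind, more cells with the transcript and more transcript per cell cannot be told apart, and shares of cells with a UMI are therefore given beside the levels.

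**Figure D1:**
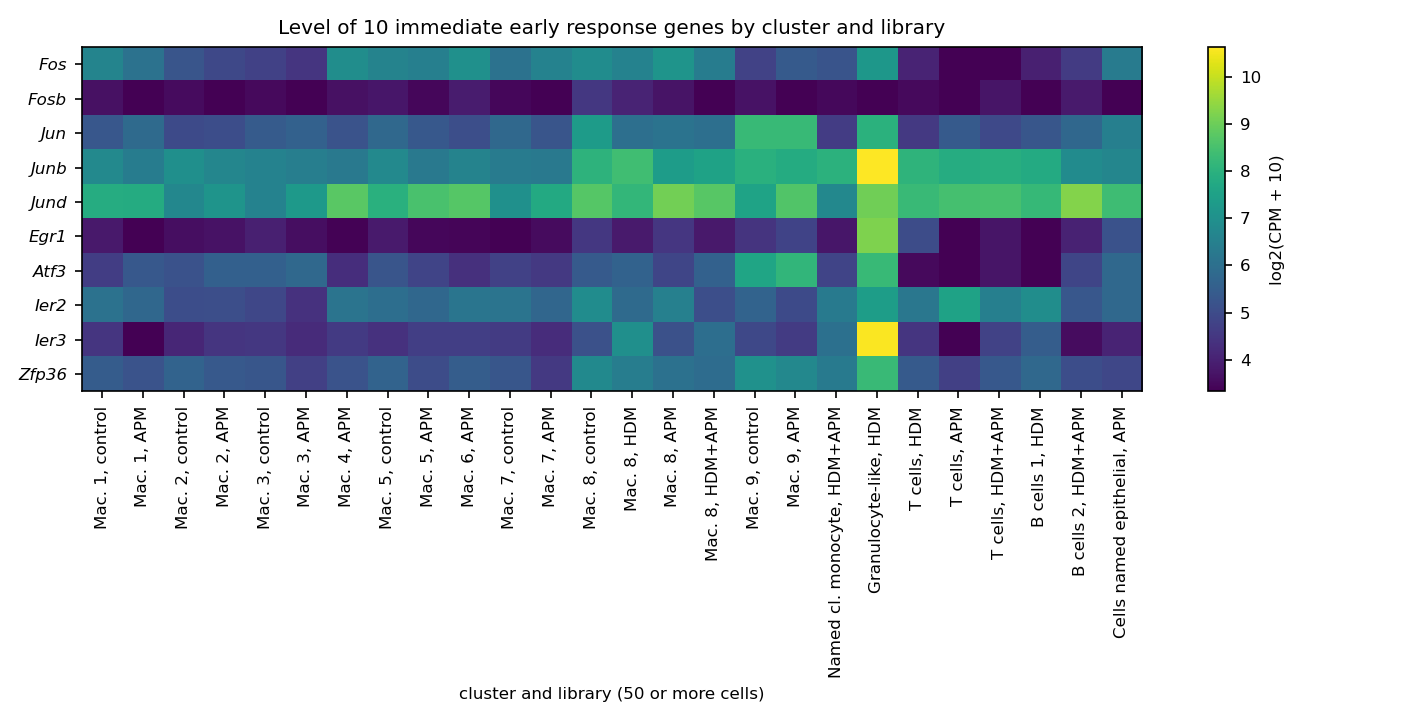
Level of the 10 genes as log2(CPM + 10) (color) in each of the 26 cluster and library pairs with at least 50 cells. The granulocyte-like column of HDM stands out for Ier3, Junb and Egr1, the Macrophage 9 columns for Jun and Atf3, and Fos is low in Macrophages 2 and 3 and in lymphocytes.

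The granulocyte-like cells carried the highest levels of several members. In the 132 such cells of HDM, Ier3 stood at 1546 CPM (1298 to 1827), and the next pair, Macrophage 8 of HDM, stood at 115.4 (86.44 to 150.9). Junb, the Jun family member known for restraining growth, stood at 1591 CPM (1339 to 1876) against 328.8 (278.4 to 385.6) in Macrophage 8 of HDM, which came next. Egr1 stood at 586.6 CPM (438.1 to 769.3), and no other pair was above 26.23. These 3 gaps, and the one below Zfp36 at 304.6 CPM (200.7 to 443.2), had no overlap of intervals. Fos, at 135.4 CPM from 12 UMIs, and Jun, at 248.2 CPM, had intervals that reached those of macrophage clusters, and Fosb had 0 UMIs there, which by a limit of 3 counts allows up to 33.84 CPM, and by the exact interval up to 41.62.

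The granulocyte-like cells were shallow, with a median of 647.5 UMIs, and 2 of the 132 reached 1000 UMIs, so no thinned share is available for them. Even at that depth an Ier3 UMI was found in 51.5% of them (42.7 to 60.3) and an Egr1 UMI in 22% (15.2 to 30). In T cells of the same library, at a median of 1327 UMIs, the shares were 1.83% for Ier3 and 2.43% for Egr1. The granulocyte-like cells of the other libraries numbered under 50 and are listed without comparison. In HDM+APM, 39 cells gave Ier3 at 1226 CPM, Junb at 1055, Jun at 627.5, Zfp36 at 541.9, Egr1 at 199.6 and 0 Fos UMIs, which by 3 counts allows up to 85.56 CPM. In APM, 29 cells gave Junb at 1015 CPM, Jun at 830.1, Ier3 at 691.8, Atf3 at 645.7, Zfp36 at 599.5 and Egr1 at 92.24 from 2 UMIs. Red blood cell markers summed to 4524 CPM in these HDM cells and alveolar macrophage markers to 2143. Their part in the member levels was not tested.

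Among macrophage pairs of at least 50 cells, Fos was highest in Macrophage 8 of APM, and Jun and Atf3 in Macrophage 9. The clusters were not fully apart, as Macrophage 8 of control came next after Macrophage 9 for Jun, at 152.6 CPM. Fos encodes the partner of Jun in classical AP-1. In APM it stood at 127.6 CPM in Macrophage 8, 117.6 in Macrophage 6 and 110.9 in Macrophage 4, and in control at 108.1 in Macrophage 8, 87.82 in Macrophage 1 and 86.66 in Macrophage 5. It was low in Macrophage 3, at 16.42 CPM in control (13.17 to 20.23) and 11.79 in APM, and in Macrophage 2, at 27.82 and 20.05. The contrast of Macrophage 4 with Macrophage 3 held at equal depth. After thinning each cell to 1000 UMIs, 10.4% of Macrophage 4 cells of APM (8.66 to 12.5) had a Fos UMI. In Macrophage 3 the share was 1.68% in the same library (0.347 to 4.82) and 1.55% in control (0.847 to 2.58). The order among the high clusters did not hold. The thinned shares were 9.93% in Macrophage 8 and 10.35% in Macrophage 6 of APM. In control they were 5.8% in Macrophage 8, 7.35% in Macrophage 1 and 8.39% in Macrophage 5. In T cells of APM and HDM+APM no Fos UMI was found, which by 3 counts allows up to 47.94 and 10.25 CPM and by the exact interval up to 58.94 and 12.6, and in T cells of HDM 5 UMIs gave 6.602 CPM.

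In Macrophage 9, Jun and Atf3 were high and Fos was low. Jun stood there at 293.8 CPM in control and 296.9 in APM, and Atf3 at 188.3 and 271.8. Fos stood at 17.11 and 32.19 CPM, from 6 and 9 UMIs. Because Jun and Atf3 are among the 10 genes that set Macrophage 9 furthest from all other cells, beside Hspa1a, Hspa1b, Hsp90aa1, Hsph1 and Cxcl2, their high level describes the cluster and is no separate result. Heat shock genes summed to 24810 CPM in its control cells and 23930 in its APM cells, and in Macrophages 1, 2, 3, 5 and 7 to between 5100 and 5928. After thinning, 17.1% of Macrophage 9 cells of control (9.18 to 28) and 23.1% of APM (13.5 to 35.2) had a Jun UMI, against 2.5 and 2.59% in Macrophage 5. In its control cells 1 cell held 20 of the 103 Jun UMIs, and without that cell the level was 237.8 CPM.

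**Figure D2:**
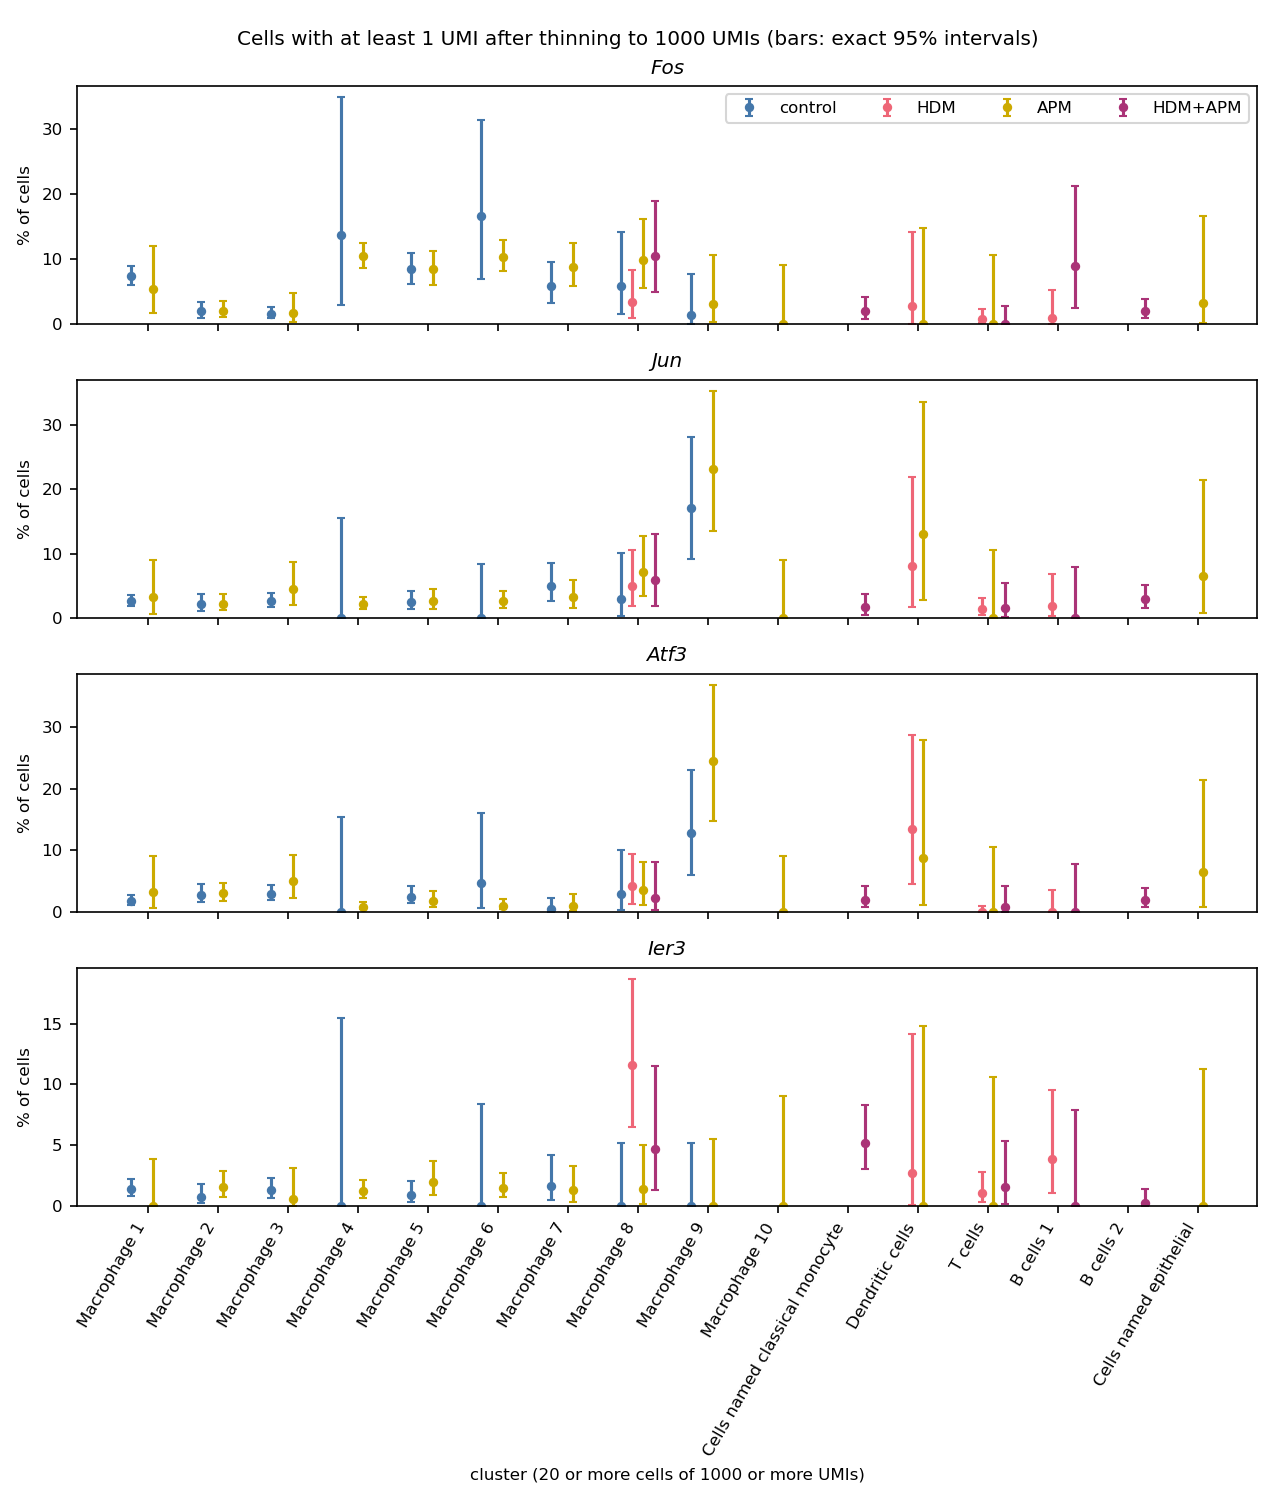
Share of cells with at least 1 UMI of Fos, Jun, Atf3 and Ier3 after thinning each cell to 1000 UMIs, by cluster (x axis) and library (color), with exact 95% binomial bars; clusters with under 20 such cells are left out. Fos is near 10% in Macrophages 4 and 6 of APM and under 3% in Macrophages 2 and 3, Jun and Atf3 stand highest in Macrophage 9, and Ier3 reaches 11.6% in Macrophage 8 of HDM.

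Jund, a Jun family member that is usually expressed without a stimulus, followed another order. It was highest in B cells 2 of HDM+APM, at 620.2 CPM (588.4 to 653.2), where 93.1% of 404 cells had a UMI and 45.3% did after thinning. It was lowest in Macrophage 3 of control, at 85.08 CPM (77.45 to 93.26). Ier2, a nuclear protein induced by growth factors, ranged from 10.72 CPM in Macrophage 3 of APM to 175.8 in T cells of APM, the latter from 11 UMIs. Fosb was close to its limit of detection throughout, with 0 UMIs in 10 of the 26 pairs and at most 12.71 CPM.

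The first comparison is dust against filtered air in macrophages, without allergen, and Jund was the member past 1.5-fold by the log2 ratio used here. Changes between libraries were read as log2 ratios of CPM with 10 CPM added to each side, which understates the change of low genes, for genes with at least 20 UMIs over both libraries. In Macrophages 1 to 7, 9 and 10, Jund stood at 153 CPM in the 3776 control cells (146.8 to 159.4) and 307.6 in the 3501 APM cells (297.1 to 318.2), a ratio of 2.01 (1.91 to 2.12) and a log2 ratio of 0.96. Of the 10 members 1 was past the fold higher and 0 were lower, beside 0.78% and 0.496% of all 10893 genes measured (1.28% in either direction). The members' median log2 ratio was -0.13 and that of all genes 0.01. Egr1 was low in both, at 4.283 CPM in control and 1.68 in APM, a ratio of 0.392 (0.219 to 0.67). Its log2 ratio was -0.29 with 10 CPM added, -0.98 with 1 CPM added, which is past the fold, and -0.01 with equal cluster shares. The class differed in makeup between the libraries: Macrophages 4 and 6, with 412.8 to 424.4 CPM, were mostly APM cells, and Macrophage 3, with the lowest level, mostly control cells. Equal weight was also given to each cluster with at least 10 cells in both libraries, which left out Macrophage 10 (9 control cells). The log2 ratio of Jund was then 0.47, under 1.5-fold. In that setting Macrophages 4 and 6 rested on 22 and 42 control cells, fewer than the 50 asked for elsewhere. Red blood cell markers summed to 506.5 CPM in control and 5667 in APM, and epithelial markers to 488.6 and 2078, and their part in the result was not tested.

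The cluster by cluster values held the same direction in 6 of 7 clusters. Jund was 2.21 times as high in APM as in control in Macrophage 9 (1.61 to 3.06), 1.79 times in Macrophage 7 (1.44 to 2.23), 1.73 times in Macrophage 3 (1.42 to 2.09), 1.53 times in Macrophage 5 (1.37 to 1.7) and 1.37 times in Macrophage 2 (1.11 to 1.68). In Macrophage 8 the ratio was 1.29 (0.963 to 1.74), and in Macrophage 1 it was 0.973 (0.713 to 1.3). Jund was past the fold in Macrophages 3, 5, 7 and 9, where 1.54%, 1.07%, 2.45% and 7.9% of all genes measured were higher. The 12 alternative settings include no minimum of UMIs, which cannot change the ratio of a measured member. Of the 12, the call was lost in Macrophage 5 under 6 (lowest log2 ratio 0.47), in Macrophage 3 under 2 (0.45) and in Macrophage 7 under 1 (0.57), with no change of direction. The shares past the fold lower there were 2.28%, 2.85%, 3.85% and 12.6%, and in either direction 3.82%, 3.92%, 6.3% and 20.5%. Zfp36 was past it lower in Macrophages 5 and 7 and Ier2 in Macrophage 9. After thinning, the log2 ratio of Zfp36 in Macrophage 5 was -0.17. Ier2 in Macrophage 9, from 14 UMIs in control and 6 in APM, turned to 1.24 in cells of 2000 to 5000 UMIs. With 50 CPM added, each of these was under the fold (-0.33, -0.32 and -0.33). In Macrophage 1, Atf3 (7 UMIs in APM) was past it higher and Ier3 (0 UMIs in APM) lower, beside 5.26% and 13.8% of genes (19% in either direction). In Macrophage 2 none of the members was past it, beside 1.58% higher and 2.08% lower (3.67%). A ratio above 0 on the log2 scale in at least 6 of the 7 clusters was also found for 20.7% of the 2731 genes measured in all 7, so the count of clusters by itself does not set Jund apart.

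By CPM over all cells, Junb and Zfp36 were lower in APM in all 7 clusters. The direction was not kept at every depth. In cells of 2000 to 5000 UMIs, the log2 ratios turned to 0.98 (Junb) and 0.46 (Zfp36) in Macrophage 9. In Macrophage 8 they turned to 0.26 and 0.24. After thinning, Zfp36 turned to 1.14 in Macrophage 9. For Junb the levels in control and APM were 99.49 and 74.75 CPM in Macrophage 1, 114.5 and 92.23 in Macrophage 2, 85.64 and 77.18 in Macrophage 3, and 99.77 and 67.78 in Macrophage 5. They were 72.38 and 67.83 in Macrophage 7, 254.3 and 155.6 in Macrophage 8, and 239.6 and 218.2 in Macrophage 9. The interval of the ratio left out 1 in Macrophages 2, 5 and 8. For Zfp36 the median log2 ratio over the clusters was -0.57, and the interval left out 1 in Macrophages 3, 5 and 7, with ratios of 0.56, 0.546 and 0.454. Of all genes measured in the 7 clusters, 9.01% were lower in every one. Over the whole class Zfp36 stood at 35.54 CPM in control and 26.69 in APM, a ratio of 0.751 (0.648 to 0.869).

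Fos shows how far the class and its clusters can part. Over the class it was 51.8 CPM in control and 75.14 in APM, a ratio of 1.45 (1.31 to 1.6). Within clusters it was higher in APM in 3 and lower in 4 (with under 20 UMIs in Macrophage 9), with a median log2 ratio of -0.12. With equal cluster weights the log2 ratio was -0.35. That value includes Macrophages 4 and 6, which are not among these 7 clusters. Their control levels of Fos, 183.4 and 200.2 CPM, rested on 12 UMIs in 22 cells and 14 UMIs in 42 cells. Jun was higher in 4 clusters and lower in 3, with 40.02 and 35 CPM in the class. Atf3, not measured in every cluster, had 31.12 and 26.69 CPM in the class. Ier2 was lower in 6 of the 7 clusters, a count that 21.8% of genes reached in that direction.

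**Figure D3:**
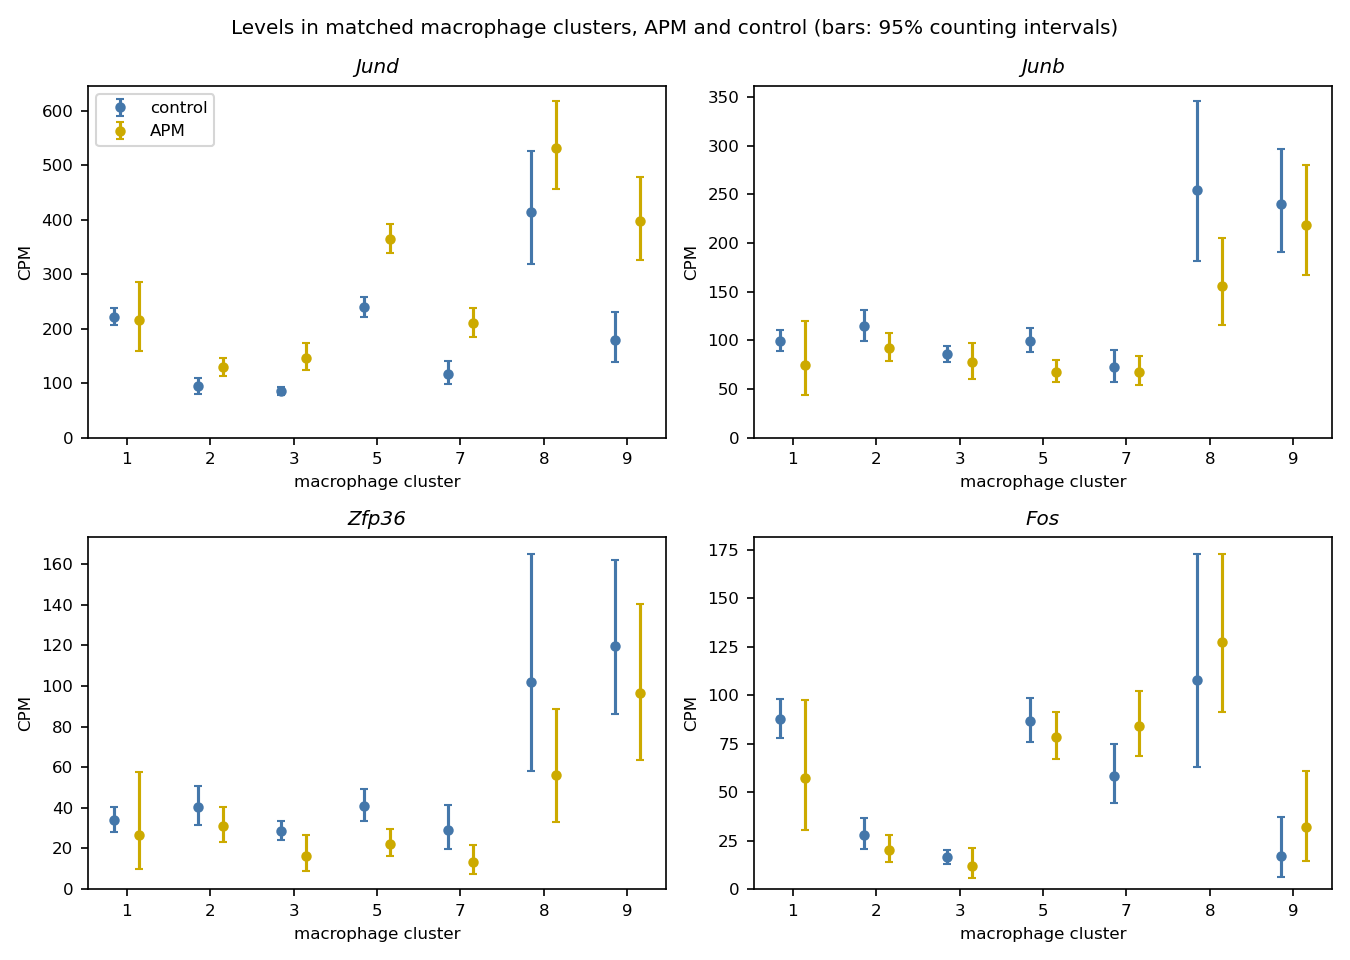
CPM of Jund, Junb, Zfp36 and Fos in control and APM in the 7 macrophage clusters with at least 50 cells in both libraries, with exact 95% Poisson bars for counting error; the y axes differ between panels and start at 0. Jund is higher in APM in 6 clusters, Junb and Zfp36 are lower in all 7, and Fos goes either way.

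In the same comparison other genes of the pathway were counted against the shares of all genes given above, 0.78% higher and 0.496% lower. Of 37 other early response genes measured, 1 was past 1.5-fold higher and 1 lower. Their median was 0.05 on the log2 scale. Phlda1, a pleckstrin homology protein, was 1.67 times as high in APM, and Plk2, a polo-like kinase, was at 0.42 times its control level. Of 22 upstream kinases and serum response factors, 0 were higher and 1 was lower, Mapkapk2, the kinase known to hold Zfp36 inactive, at 142.1 CPM in control and 88.3 in APM. Of 18 other leucine zipper genes, Cebpb, a regulator of inflammatory genes in myeloid cells, was the 1 past the fold, at 721.8 and 1770 CPM (ratio 2.45, 2.4 to 2.51). Of 10 AU-rich cytokine and enzyme transcripts, 2 were lower and 0 higher: Tnf, at 20.48 and 8.587 CPM, and the neutrophil chemokine Cxcl2, at 75.29 and 43.68. Of 14 heat shock genes, none was past the fold in either direction.

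The second comparison is allergen against saline in filtered air. In Macrophages 1 to 7, 9 and 10, 4 of 10 members were past 1.5-fold higher in HDM and 0 lower, beside 11.5% of all genes higher and 9.17% lower (20.7% in either direction). The HDM side rests on 60 cells. Ier3 stood at 11.64 CPM in control (9.98 to 13.5) and 76.18 in HDM (46.5 to 118), a ratio of 6.54 (3.9 to 10.4). Fos stood at 51.8 and 106.7 CPM, a ratio of 2.06 (1.36 to 3), and Junb at 97.84 and 167.6, a ratio of 1.71 (1.24 to 2.31). Egr1 was the fourth, on 3 UMIs in HDM, with a ratio of 2.67 (0.536 to 8.15). The median log2 ratio of the members was 0.54 and that of all genes 0.04. After thinning to equal depth the members' median was 0.01. The log2 ratio was then 1.00 for Ier3, 0.89 for Fos and 0.66 for Jund, but 0.10 for Junb, -0.28 for Fosb, -0.51 for Egr1, -0.76 for Zfp36 and -1.03 for Ier2.

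Single cells weigh on these values. Of the 20 Ier3 UMIs in HDM, 5 came from 1 cell, and without the top cell of each library the level in HDM was 58.69 CPM and the log2 ratio 1.68. Junb fell under 1.5-fold without its top cell, which held 9 of 44 UMIs. Jun, Atf3 and Ier2 had log2 ratios of -0.18, -0.17 and -0.27. The granulocyte markers of this class summed to 247.6 CPM in HDM and 276.1 in control. Alveolar macrophage markers summed to 38650 CPM in HDM and 12730 in control, and red blood cell markers to 2053 and 506.5, and their part in the result was not tested.

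In Macrophage 8 Ier3 was again higher in HDM, while Jun and Ier2 were lower. Ier3 stood at 25.43 CPM in control (4 UMIs), 24.9 in APM, 115.4 in HDM and 52.36 in HDM+APM, so both libraries with allergen were above both without it, though the intervals of HDM+APM (34.2 to 76.71) and control (6.928 to 65.1) overlapped. Against control the HDM ratio was 4.54 (1.67 to 17.3). After thinning, 11.6% of the HDM cells (6.47 to 18.7) and 0 of 69 control cells had an Ier3 UMI. Of 8 members measured, 1 was past the fold higher and 2 were lower, beside 22.6% and 15.2% of all genes (37.8% in either direction), with a median of -0.34 beside 0.07. The 2 lower ones were Jun, at 152.6 CPM in control and 54.43 in HDM, and Ier2, at 108.1 and 47.9.

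The Jun level of Macrophage 8 in control rested on few cells. Its 24 UMIs lay in 10 of 110 cells, 6 of them in 1 cell. In cells of 2000 to 5000 UMIs, of which control had 13, the log2 ratio turned to 2.05. The control cells of this cluster were shallow, at a median of 1176 UMIs against 3056 in HDM. Macrophage 8 also differed between libraries in its markers: beside the alveolar macrophage markers given above, monocyte-derived markers summed to 2295 CPM in control, 3598 in APM, 5228 in HDM and 2634 in HDM+APM. Epithelial markers summed to 16150, 3813, 688 and 1933 CPM in the same order, and red blood cell markers to 375, 19550, 6197 and 42.29. Hspa1a stood at 1182 CPM in control and 19.6 in HDM. The part of these differences in the member levels was not tested. Among AU-rich transcripts, 5 of 6 measured were higher in HDM, Il1b at 38.14 and 196 CPM, and Ccl4 at 6.356 (1 UMI) and 143.7, a ratio of 22.6 (3.92 to 906). Of 27 other early response genes, 8 were higher and 6 lower. As given above for this comparison, 22.6% of all genes were past the fold higher and 15.2% lower. Egr2, a relative of Egr1, had 0 UMIs in control and 35 in HDM, and Klf2, a factor of quiescent cells, stood at 158.9 and 28.31 CPM.

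**Figure D4:**
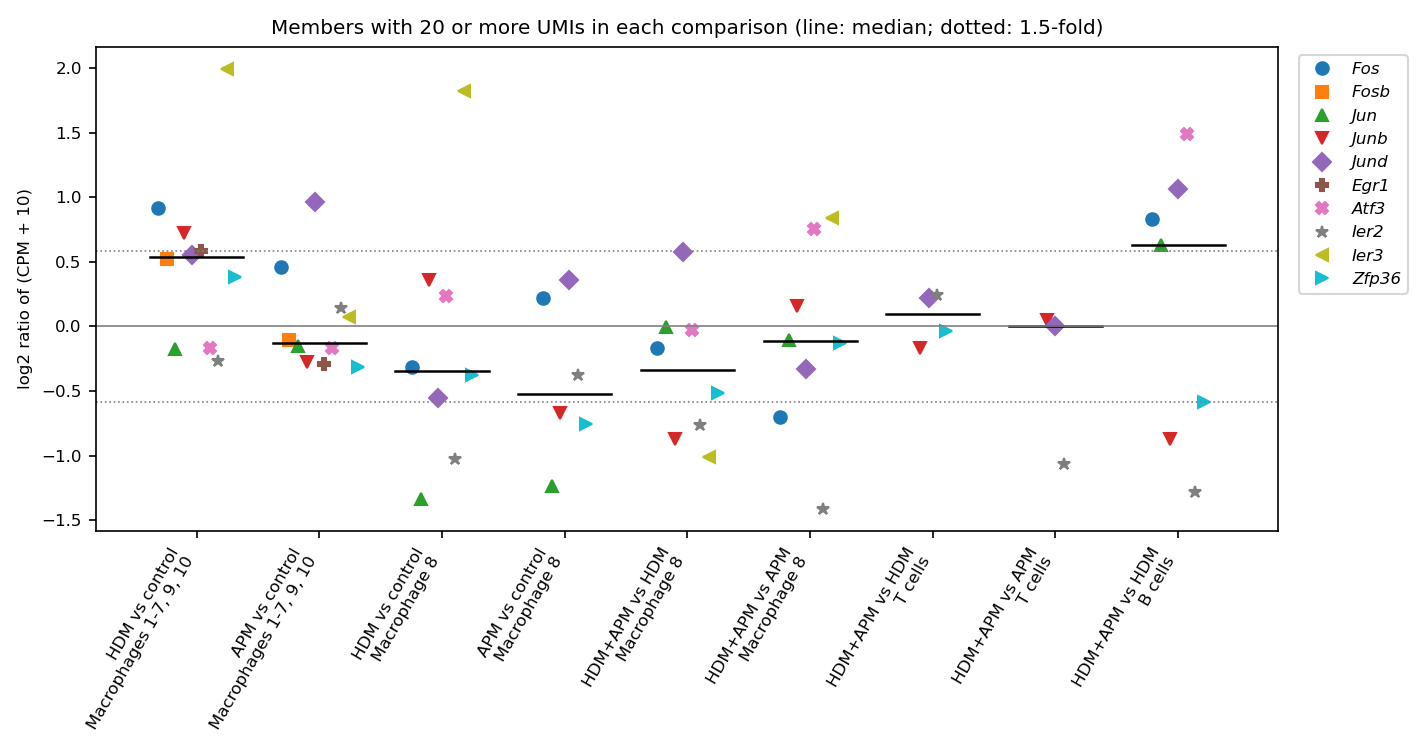
Log2 ratios of (CPM + 10) of each member with at least 20 UMIs, in the 9 comparisons of classes with at least 50 cells in both libraries; black lines are medians over these members and dotted lines mark 1.5-fold. Ier3 is the highest point in both comparisons of HDM with control, and Jund alone lies above the upper line in APM against control of Macrophages 1 to 7, 9 and 10.

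For dust in Macrophage 8, 6 members were measured, of which 0 were higher and 3 lower in APM than in control, beside 11.1% and 10.3% of all genes (21.4% in either direction), with a median of -0.53 beside 0.03. Jun had a ratio of 0.388 (0.201 to 0.738), Junb 0.612 (0.396 to 0.952) and Zfp36 0.551 (0.265 to 1.16). These 3 turned direction in cells of 2000 to 5000 UMIs, where APM had 30 cells and control 13.

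With allergen in both groups, some members were lower with dust in Macrophage 8. Of 8 members measured against HDM, 0 were past the fold higher and 3 were lower, beside 7.03% and 11.2% of all genes (18.2% in either direction), with a median of -0.34 beside -0.06. Ier3 went from 115.4 CPM in HDM to 52.36 in HDM+APM, a ratio of 0.454 (0.272 to 0.739). Junb went from 328.8 to 175.2 CPM (ratio 0.533, 0.405 to 0.698), and Ier2 from 47.9 to 24.16, with an interval that held 1. Jund was the exception, at 278.7 and 420.9 CPM, a ratio of 1.51 (1.21 to 1.9) that stayed under the fold on the log2 scale with 10 CPM added. Of the other early response genes 14 of 29 were lower and 2 higher. They included Dusp5, a phosphatase of ERK, at 0.231 times the HDM level, while Klf2 was 7.97 times as high (4.47 to 15.4). Of 7 AU-rich transcripts 5 were lower and 0 higher, with Cxcl3 at 124.1 and 12.08 CPM. In cells of 2000 to 5000 UMIs, 28 against 65, none of the 3 lower members was past the fold. After thinning, the log2 ratios of Junb (-0.43) and Ier2 (-0.07) were under it, Fos turned from -0.17 to 1.16, and Zfp36 went from -0.51 to -1.17. In cells of at most 5% mitochondrial UMIs the value of Ier3 was -0.43, also under the fold.

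Against APM, the HDM+APM cells of Macrophage 8 had 2 members higher (Ier3 and Atf3) and 2 lower (Fos and Ier2) of 8 measured, beside 13.3% and 15.1% of all genes (28.4% in either direction), with a median of -0.12 beside -0.03. Fos stood at 127.6 CPM in APM and 74.51 in HDM+APM, a ratio of 0.584 (0.364 to 0.933). Ier2 stood at 80.93 and 24.16, a ratio of 0.299 (0.137 to 0.613). The intervals of Ier3 and Atf3 held 1. Median depth was 1218.5 UMIs in APM and 4840 in HDM+APM. The log2 ratio of Fos, -0.70, was under the fold after thinning (-0.41), with 50 CPM added (-0.51) and in cells of at most 5% mitochondrial UMIs (-0.53). It was -2.21 in cells of 2000 to 5000 UMIs. After thinning, 9.93% of APM cells and 10.47% of HDM+APM cells had a Fos UMI. This comparison and the previous one share the HDM+APM cells.

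In T cells, 1 of the members measured was past the fold, Ier2 against APM. Junb stood at 262.8 CPM in HDM, 223.7 in APM and 232.3 in HDM+APM, and Jund at 301.1, 351.5 and 351.9. Of 4 members measured in HDM+APM against HDM, none was past 1.5-fold, beside 7.88% of all genes higher and 12.3% lower (20.2% in either direction), and their median log2 ratio was 0.09 beside -0.03. Egr1 had 17 UMIs in 12 T cells of HDM and 1 UMI in HDM+APM, too few to enter the comparison, with a ratio of 0.152 (0.00364 to 0.971). Of 3 members measured against APM, Ier2 was lower, at 175.8 CPM in APM and 78.58 in HDM+APM, with a ratio of 0.447 (0.209 to 1.02), beside 18.7% of all genes higher and 24.8% lower (43.4% in either direction). The AU-rich transcripts of HDM T cells, by contrast, were lower in 3 of 4 cases in HDM+APM, with Ccl4 at 451.6 and 20.5 CPM.

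B cells held different clusters in the libraries with allergen, and the members differed with them. In HDM, 119 of 128 B cells were of B cells 1, and in HDM+APM 404 of 449 were of B cells 2. Of 7 members measured, 4 were past 1.5-fold higher and 3 lower in HDM+APM, beside 17.6% and 20% of all genes (37.5% in either direction), with a median of 0.63 beside -0.04. Jund stood at 294.1 CPM in HDM and 627.3 in HDM+APM, a ratio of 2.13 (1.65 to 2.8). Junb went the other way, at 212.2 and 111.5 CPM (ratio 0.526, 0.381 to 0.741), as did Ier2, at 91.61 and 31.87. Atf3 had 0 UMIs in HDM and 43 in HDM+APM, which is 1.25-fold higher if 3 counts are set for the HDM cells. The intervals of Atf3, Fos, Jun and Zfp36 held 1. In B cells 1 Atf3 had 0 UMIs in both libraries. Within B cells 1 alone, 119 cells against 45, Jund stood at 287.5 and 814.1 CPM. Junb, Jun and Zfp36 had log2 ratios there of 0.17, -0.85 and 0.86, each turned from its value over all B cells, and the library cannot be told apart from the cluster for B cells 2.

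The genes whose levels followed the members most closely over the 26 pairs included Dusp1, a phosphatase of MAP kinases, and Gadd45b and Ppp1r15a, both known stress-induced genes. By Pearson's r with the mean log2(CPM + 10) of the members, among 5259 genes of at least 20 CPM on average, they were Gm20406 (0.84), Gadd45b (0.84), Dusp1 (0.84), Ppp1r15a (0.83), Il1b (0.82), Hcar2 (0.81), Sertad1 (0.81) and Trib1 (0.8). The pairs share libraries and depth, and the granulocyte-like column weighs on all of them, so r is a description. Fos went with Gcnt2 (0.84) and Il13ra1 (0.84). Egr1 went with Il1r2 (0.88) and Mmp9 (0.87), both on the granulocyte marker list, and Sertad1 (0.87). Atf3 went with Jun (0.84), Cxcl2 (0.83) and Cpeb4 (0.83).

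Between members, r over the 26 pairs was highest for Jun with Atf3 (0.84) and Junb with Zfp36 (0.82), and lowest for Atf3 with Ier2 (-0.31). For Fos and Junb it was -0.07. Within single macrophages, thinned to 1000 UMIs and counted inside each of 18 cluster and library pairs, Junb and Zfp36 UMIs were found together in 45 cells, against 23.9 if they fell independently within each pair. Jun and Atf3 were found together in 15 cells against 9.71, and Fos and Jun in 19 against 14.1. Jund and Zfp36 were found together in 41 against 47.7. These counts are small and describe the cells sampled.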

How the data were processed

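The authors deposited raw UMI counts per gene and cell, not normalized, with a table of each cell's library, coarse type and refined cluster. Cell Ranger 2.2.0 and Seurat 2.3.4 are named, with build mm10, in the submitters' processing notes, and the filters behind the deposited cells are not given in the sources used here. All 9925 cells (496 to 9998 UMIs, at most 9.99% mitochondrial) were kept with the deposited cluster names. No doublet caller was run, 84 cells carry a barcode found in another library, and 23 cells have a coarse type that differs from their cluster and were kept in the cluster. UMI counts were summed per cluster and library and scaled to CPM. Intervals are exact: Poisson for CPM, Clopper-Pearson for shares, conditional binomial for ratios. They cover counting error only, at 95%. A gene was measured with at least 20 UMIs over both libraries, a class compared with at least 50 cells in each, and a difference counted past 1.5-fold of CPM + 10. Computation used Python 3.11.15, numpy 2.4.6, scipy 1.17.1, pandas 2.3.3 and matplotlib 3.10.9, and the interval code was tested on simulated data. Named genes are all 10 members, up to 4 genes of each other list with the largest log2 ratio in size, and the genes of highest r with the members, of which 1 is not reported here. Cells were thinned once to 1000 UMIs with a fixed seed. Members and lists were chosen with earlier results of these data known. Gene positions and 3′ untranslated regions came from GENCODE vM21, promoters from RefSeq.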

Additional observations from a re-analysis of the deposited data

How the results depend on the processing

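No paired analysis was possible because each group is 1 library. For a median over members, the counting range ran from the median of the members' lower interval ends to the median of their upper ends. That is wide and is no interval of the median itself, so staying within it is a weak check. Of the medians over members, 109 of 110 recomputed values stayed within the counting range, and the exception was APM against control in Macrophage 8, which moved from -0.53 to 1.00 in cells of 2000 to 5000 UMIs. For HDM against control in Macrophages 1 to 7, 9 and 10 the median went from 0.54 to 0.01 after thinning, within that wide range. Of the log2 ratios of single members, 1265 stayed within their range, 79 moved and 12 that were past 1.5-fold turned direction. Smaller values that changed sign were not counted as turned. An example is Fos in APM against control of Macrophages 1 to 7, 9 and 10, from 0.46 to -0.35 with equal cluster shares. The 1265 include 111 values without a minimum of UMIs, which repeat the main value by construction. In cells of 2000 to 5000 UMIs the turned values were -0.52 for Egr1 (HDM against control, Macrophages 1 to 7, 9 and 10), 2.05 for Jun (HDM against control, Macrophage 8), 3.52 for Jun, 0.26 for Junb and 0.24 for Zfp36 (APM against control, Macrophage 8), 1.9 for Zfp36 (B cells) and 1.24 for Ier2 (APM against control, Macrophage 9). After thinning they were -0.51 for Egr1 in the same class and -0.45 for Atf3 (HDM+APM against APM, Macrophage 8). With equal cluster shares, which for B cells leaves B cells 1 only, they were -0.85 for Jun, 0.17 for Junb and 0.86 for Zfp36. Other causes were not tested. The window of 2000 to 5000 UMIs, leaving out shared barcodes and leaving out top cells were chosen after seeing the data. T cells of HDM+APM against APM were not run in that window, where APM had 2 cells. At a 2-fold limit 8 of 18 counts of members moved.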

Other observations

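Dendritic cells, with 38 cells in HDM and 23 in APM, were too few to compare but carried high levels of some members. Junb stood at 480.9 CPM in HDM (373.4 to 609.6) and 809.9 in APM (625.1 to 1032), and Zfp36 at 198 and 211.8. Jund stood at 91.93 CPM in HDM (48.95 to 157.2) and 548.3 in APM (398.4 to 736), with intervals that do not overlap. Atf3 stood at 106.1 and 87.22 CPM and Jun at 91.93 and 87.22, while Egr1 had 0 UMIs in both. In the few control cells of the clusters that were mostly from APM, Fos was also found: 12 UMIs in 22 cells of Macrophage 4 (183.4 CPM) and 14 UMIs in 42 cells of Macrophage 6 (200.2 CPM). The 308 deep cells named classical monocyte in HDM+APM held Ier3 at 54.89 CPM, next to Macrophage 8 of the same library at 52.36, and Jund at 96.36 CPM. Among the pairs of at least 50 cells, only Macrophages 2 and 3 of control had less Jund.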
